A study of Mus musculus with 9 samples.

Results

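Steroid and thyroid hormone signalling in brown adipose tissue (BAT) was followed here through 8 genes. They were *Nr3c1*, *Nr3c2*, *Esr1*, *Thra* and *Thrb*, which encode nuclear hormone receptors, *Hsd11b1*, which encodes the enzyme that activates glucocorticoids, and *Fkbp5* and *Tsc22d3*, which are glucocorticoid targets. The genes were taken by exact symbol from 24356 listed in each library, and all 8 were above 0 FPKM (fragments scaled to transcript length and to the size of the library) in all 9 libraries. They were therefore all among the 14675 genes that could be tested.

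The libraries were poly A+ RNA of whole BAT from GHRH-KO mice, which lack growth hormone releasing hormone, and from wild-type (WT) littermates. There were 3 WT females, 2 KO females, 2 WT males and 2 KO males, each library labelled with its own animal number. All mice, of either genotype, had a mixed C57BL6 and 129SV background and were fed standard chow ad libitum. The knockout is in the germ line and so not limited to BAT, and the age of the mice and the hour of harvest are not given in the sources used here.

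The genotype labels were first checked against the targeted gene. The libraries labelled KO held 0.846, 0.233, 0.799 and 0.470 FPKM of *Ghrh*, while those labelled WT all had 0, which is the opposite of what the labels imply. FPKM per gene do not show which part of *Ghrh* the fragments came from. The growth hormone receptor gene *Ghr* ranged from 42.2 to 51.6 FPKM in the libraries labelled KO and from 62.8 to 155 FPKM in those labelled WT. Every direction given from here on follows the genotype labels.

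The libraries also differed in the cells they held. Summed FPKM of the 12 brown adipocyte markers overlapped between genotypes, with 6615 to 8605 in the libraries labelled KO and 6260 to 8327 in those labelled WT, and none of the markers was at 0 in all libraries. The library labelled KO male 1 held 301 summed FPKM of 14 lymphocyte markers against 2.33 to 5.78 in the others, and 620 of 10 macrophage markers against 51.9 to 65.2 in the other libraries labelled KO and 83.7 to 197 in those labelled WT. Of 12 fibroblast and progenitor markers 4 passed for genotype (limma), against 3.60% of all genes. These were *Pdgfrb*, *Col1a1*, *Col1a2* and *Col3a1*, all lower in every library labelled KO than in any labelled WT, as were 6.04% of all genes. The summed fibroblast and progenitor markers overlapped (164 to 331 and 214 to 359). The sum of 15 skeletal muscle markers was 3038 to 13842 in the libraries labelled KO and 524 to 2625 in those labelled WT, without overlap. White adipocyte markers, with *Hoxc10* and *Tcf21* at 0 throughout, summed to 325 in WT female 1 and 324 in WT male 2 and to 35.1 to 92.3 in the other 7 libraries. The part of these cell differences in the values below was not tested, and in whole tissue a smaller number of cells of a type and less RNA per cell cannot be told apart.

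**Figure D1:**
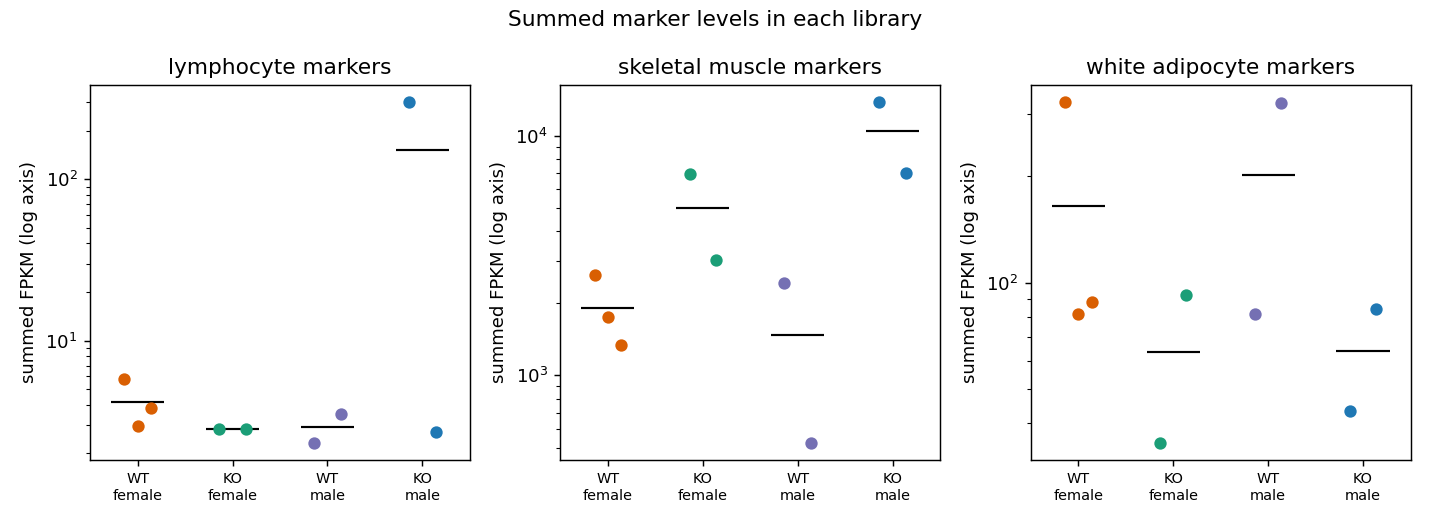
Summed FPKM of lymphocyte, skeletal muscle and white adipocyte markers (log axes) in each library by labelled group. Points are libraries and bars are group means. KO male 1 stands at 301 for lymphocyte markers, and the muscle sums of the libraries labelled KO (3038 to 13842) lie above those labelled WT (524 to 2625).

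Nuclear hormone receptors are transcription factors that bind a small lipophilic hormone and DNA. Glucocorticoids act through the glucocorticoid receptor, which waits in the cytoplasm bound to heat shock protein chaperones and moves to the nucleus with hormone. 11β-hydroxysteroid dehydrogenase type 1, the product of *Hsd11b1*, makes active corticosterone from its inert 11-keto form inside the cell, using NADPH that hexose-6-phosphate dehydrogenase supplies. Thyroid hormone receptors usually sit on DNA with or without hormone, and BAT is a classic target, since deiodinase 2 (*Dio2*) activates thyroid hormone locally and *Ucp1*, the uncoupling protein of thermogenesis, responds to it.

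The differences between libraries centred on *Hsd11b1* and *Fkbp5*, so the RefSeq promoters of these genes are shown, with a promoter each of *Tsc22d3* and *Thrb* that holds a glucocorticoid receptor half-site. Each runs from 250 bases before to 50 bases after a transcript start (GRCm38.p6), 5′ to 3′ on the strand of the gene. Capitals mark the half-site AGAACA on either strand (its reverse complement is TGTTCT), a motif found in 19.0% of 32851 such promoters.
*Hsd11b1*, chr1:193242311-193242610, minus strand: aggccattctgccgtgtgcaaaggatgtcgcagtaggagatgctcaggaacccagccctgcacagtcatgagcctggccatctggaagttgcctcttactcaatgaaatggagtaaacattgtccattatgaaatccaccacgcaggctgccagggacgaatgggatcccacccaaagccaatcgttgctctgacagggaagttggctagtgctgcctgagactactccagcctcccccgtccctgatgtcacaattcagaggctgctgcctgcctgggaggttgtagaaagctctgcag
*Fkbp5*, chr17:28486100-28486399, minus strand: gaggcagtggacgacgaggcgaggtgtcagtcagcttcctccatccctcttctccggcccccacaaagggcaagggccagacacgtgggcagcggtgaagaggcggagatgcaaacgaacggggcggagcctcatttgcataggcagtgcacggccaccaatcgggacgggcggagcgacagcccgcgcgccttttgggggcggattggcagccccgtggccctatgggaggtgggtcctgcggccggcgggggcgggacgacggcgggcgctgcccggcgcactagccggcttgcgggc
*Tsc22d3*, chrX:140600473-140600772, minus strand: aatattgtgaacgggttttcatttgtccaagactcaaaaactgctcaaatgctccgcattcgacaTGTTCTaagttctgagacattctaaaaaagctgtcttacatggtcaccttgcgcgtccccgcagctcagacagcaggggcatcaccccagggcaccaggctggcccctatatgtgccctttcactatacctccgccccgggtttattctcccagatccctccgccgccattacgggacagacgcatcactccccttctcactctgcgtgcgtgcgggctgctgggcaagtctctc
*Thrb*, chr14:17981394-17981693, plus strand: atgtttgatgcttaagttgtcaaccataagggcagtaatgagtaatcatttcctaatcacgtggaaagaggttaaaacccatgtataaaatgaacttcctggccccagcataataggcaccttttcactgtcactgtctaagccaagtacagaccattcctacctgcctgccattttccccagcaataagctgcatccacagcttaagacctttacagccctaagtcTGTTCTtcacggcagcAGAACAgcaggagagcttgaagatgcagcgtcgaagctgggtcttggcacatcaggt

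The half-site was not in the windows of *Hsd11b1* and *Fkbp5*. There was 1 match in that of *Tsc22d3* (first base at -185 from the start) and there were 2 in that of *Thrb* (at -23 and -7). The inverted repeat of the half-site with a spacer of 3 bases was in 0.00913% of promoters and in none of the 10 windows listed for 6 of the genes, which did not include *Nr3c1* and *Thra*. These matches describe letters only. By GENCODE M21 (GRCm38), *Hsd11b1* lies at chr1:193221634-193264075, *Fkbp5* at chr17:28399094-28517527 and *Tsc22d3* at chrX:140539528-140600659, all on the minus strand. *Nr3c2* lies at chr8:76899442-77245012, *Esr1* at chr10:4611593-5005614, *Thra* at chr11:98740638-98769006 and *Thrb* at chr14:17660261-18038090, all on the plus strand.

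Per transcript length, *Hsd11b1* was the most abundant of the 8 genes, with a median of 66.6 FPKM over the 9 libraries. It was followed by *Tsc22d3* (34.4), *Thra* (26.5), *Nr3c1* (12.6), *Thrb* (5.35), *Esr1* (5.31), *Fkbp5* (1.68) and *Nr3c2* (1.34). The glucocorticoid receptor was thus about an order of magnitude above the mineralocorticoid receptor, and *Thra* was above *Thrb* in every library. *Fkbp5* spanned the widest range, 7.17-fold from the lowest to the highest library, and *Nr3c1* the narrowest, 1.31-fold.

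**Figure D2:**
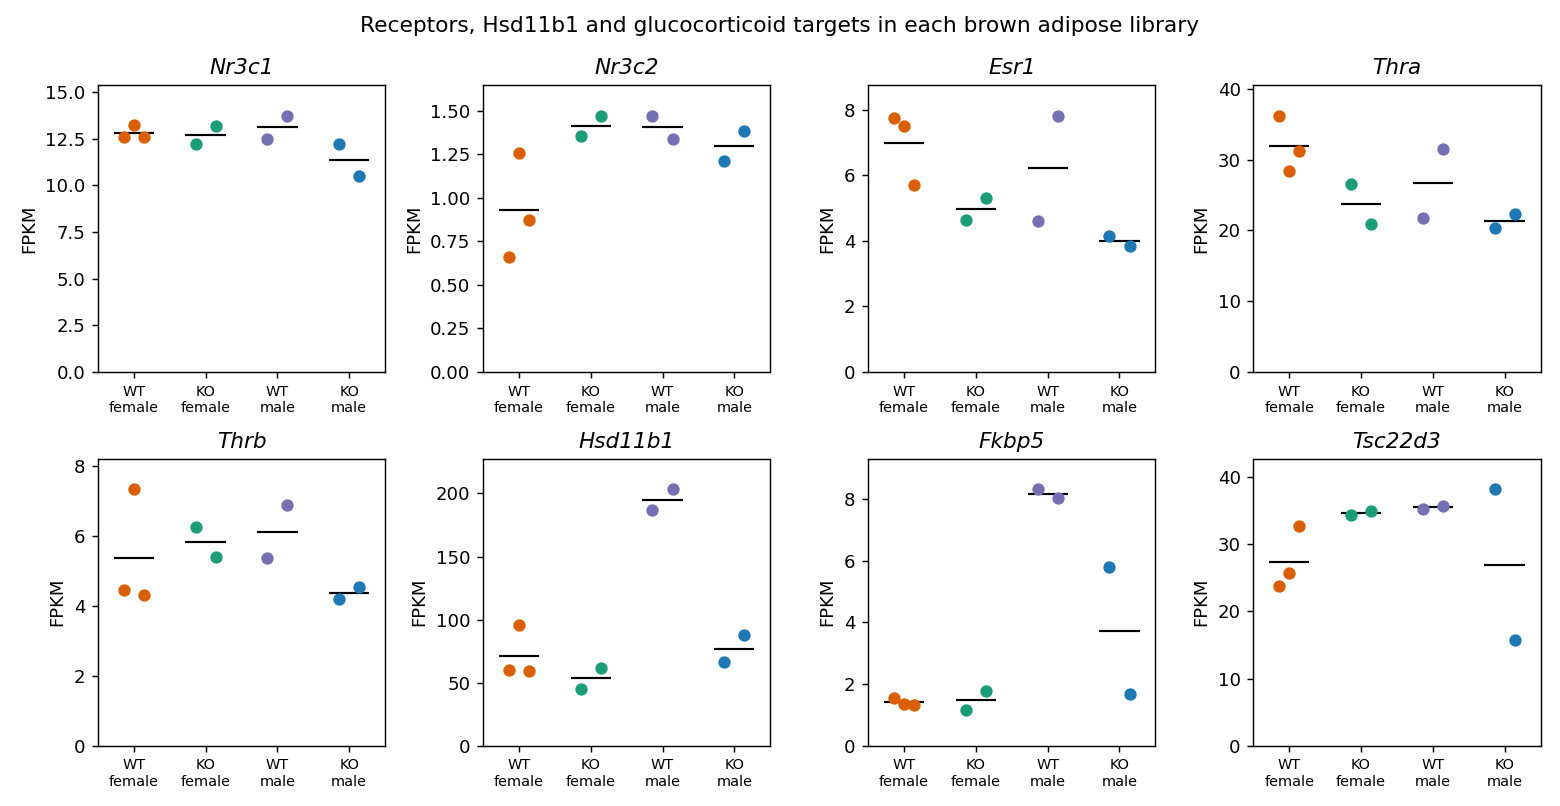
FPKM of the 8 genes in each library (linear axes from 0) by labelled group. Points are libraries and bars are group means. *Hsd11b1* and *Fkbp5* are highest in both WT males, *Fkbp5* of KO male 1 stands at 5.79, and for each gene the libraries labelled KO and WT overlap.

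*Hsd11b1* was higher in the WT males than in any other library. It stood at 187 and 203 FPKM in the WT males, at 66.6 and 87.5 in the males labelled KO, at 59.8, 95.6 and 59.0 in the WT females and at 45.1 and 61.9 in the females labelled KO. The WT males averaged 195 ± 11.7 FPKM (SD, n = 2), 2.53-fold the males labelled KO and 2.73-fold the WT females. The males labelled KO lay within the range of the WT females.

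Averaged over the sexes, *Hsd11b1* was lower in the libraries labelled KO by a log2 difference of -0.87 (SE 0.18, limma adjusted p 0.0456). None of the other 7 genes passed. Among all genes 529 of 14675 passed (3.60%), 319 of them lower (2.17%), and the members' count is a single gene read against that background. The libraries labelled KO and WT overlapped. The exact permutation test on mean log2 FPKM, which unlike the limma fit took no account of sex, gave p 0.198 (two-sided, smallest possible 0.00794). The difference was -1.35 (SE 0.27, adjusted p 0.0812) in males and -0.40 (SE 0.24, adjusted p 0.539) in females. The interaction, which tests whether these differ, was -0.95 (unadjusted p 0.0309, adjusted p 0.688). The call was lost in 16 of 19 alternative analyses with adjusted p values (range 0.0371 to 0.382).

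*Fkbp5* encodes a co-chaperone that holds the glucocorticoid receptor in a state of low hormone affinity and is itself induced by that receptor. It stood at 8.31 and 8.03 FPKM in the WT males, at 5.79 and 1.68 in the males labelled KO, at 1.54, 1.36 and 1.32 in the WT females and at 1.16 and 1.78 in the females labelled KO. The WT males were 5.82-fold the WT females. The males labelled KO did not resemble each other: KO male 2 lay within the range of the females, while KO male 1, which carried the lymphocyte and macrophage markers, lay between the females and the WT males.

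The *Fkbp5* log2 difference by genotype was -0.68 (SE 0.34, adjusted p 0.325), with -1.39 (SE 0.51, adjusted p 0.225) in males and 0.04 (SE 0.46, adjusted p 0.985) in females. The average over the sexes became -1.12 without KO male 1 and -0.23 without KO male 2. Each of these fits leaves a single male labelled KO. The interaction was -1.43 (adjusted p 0.709). Whether cells particular to KO male 1 carried its *Fkbp5* was not tested.

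*Tsc22d3* encodes GILZ, a leucine zipper protein through which glucocorticoids dampen inflammation. It stood at 35.2 and 35.7 FPKM in the WT males, at 38.1 and 15.7 in the males labelled KO, at 23.7, 25.7 and 32.6 in the WT females and at 34.4 and 34.8 in the females labelled KO. KO male 2 was the lowest of the 9 libraries and KO male 1 the highest. The log2 difference by genotype was -0.09 (SE 0.24, adjusted p 0.894; exact permutation p 0.873), and it became 0.23 without KO male 2. In contrast with *Fkbp5*, WT males did not stand apart for *Tsc22d3*.

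The glucocorticoid receptor gene *Nr3c1* showed little spread. It stood at 12.6, 13.2 and 12.6 FPKM in the WT females, 12.2 and 13.2 in the females labelled KO, 12.5 and 13.7 in the WT males and 12.2 and 10.5 in the males labelled KO. KO male 2 was lowest, and the other 8 libraries lay between 12.2 and 13.7 FPKM. The log2 difference was -0.11 (SE 0.08, adjusted p 0.499; exact permutation p 0.127).

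The mineralocorticoid receptor, encoded by *Nr3c2*, binds aldosterone and also glucocorticoids. *Nr3c2* was at 0.663, 1.25 and 0.869 FPKM in the WT females, 1.35 and 1.47 in the females labelled KO, 1.47 and 1.34 in the WT males and 1.21 and 1.38 in the males labelled KO. WT female 1 and WT female 3 were the lowest libraries, and WT female 2 lay just above KO male 1. Within females the difference was 0.65 (SE 0.28, adjusted p 0.390), in males -0.12 (SE 0.30, adjusted p 0.902) and over both sexes 0.27 (SE 0.21, adjusted p 0.544; exact permutation p 0.310). The lncRNA *Gm10649* on the opposite strand shares 247 of the 6474 exon bases of *Nr3c2* (3.82%), and whether counting used strand is not stated.

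The oestrogen receptor alpha gene *Esr1* was lower in most libraries labelled KO. It stood at 7.74, 7.51 and 5.70 FPKM in the WT females, 4.63 and 5.31 in the females labelled KO, 4.60 and 7.82 in the WT males and 4.14 and 3.84 in the males labelled KO. Only WT male 1 among the WT libraries reached down into the range of those labelled KO. The log2 difference was -0.53 (SE 0.18, adjusted p 0.143) and of like size in females (-0.48, SE 0.24, adjusted p 0.448) and males (-0.59, SE 0.26, adjusted p 0.320). The exact permutation p was 0.0397 without adjustment for the 8 genes. The limma difference was -0.73 without WT male 1 and -0.34 without WT male 2. Each of these fits leaves a single WT male. WT female 1 and WT male 2, 2 of the 3 libraries with most *Esr1*, were those with the high white adipocyte sums, although WT female 2, at 7.51 FPKM, had 81.5. Whether that fat type bears on *Esr1* was not tested.

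The thyroid hormone receptor alpha gene *Thra* followed a like order. It stood at 36.2, 28.4 and 31.1 FPKM in the WT females, 26.5 and 20.9 in the females labelled KO, 21.8 and 31.5 in the WT males and 20.4 and 22.2 in the males labelled KO. As for *Esr1*, WT male 1 was the only WT library within the range of those labelled KO. The log2 difference was -0.37 (SE 0.14, adjusted p 0.189; exact permutation p 0.0556, not adjusted).

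*Nr1d1*, the clock repressor REV-ERBα, lies tail to tail with *Thra* on the opposite strand and shares 263 of its 4614 exon bases (5.70%). *Nr1d1* ranged from 37.3 to 63.6 FPKM in WT libraries and from 37.9 to 58.9 in those labelled KO (log2 difference 0.02, adjusted p 0.966).

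The beta receptor gene *Thrb* differed less by genotype. It stood at 4.44, 7.32 and 4.29 FPKM in the WT females, 6.24 and 5.38 in the females labelled KO, 5.35 and 6.86 in the WT males and 4.18 and 4.53 in the males labelled KO. The spread of the WT females covered all but KO male 1. The log2 difference was -0.16 (SE 0.18, adjusted p 0.718; exact permutation p 0.524), with 0.16 (SE 0.25, adjusted p 0.843) in females and -0.48 (SE 0.27, adjusted p 0.443) in males.

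**Figure D3:**
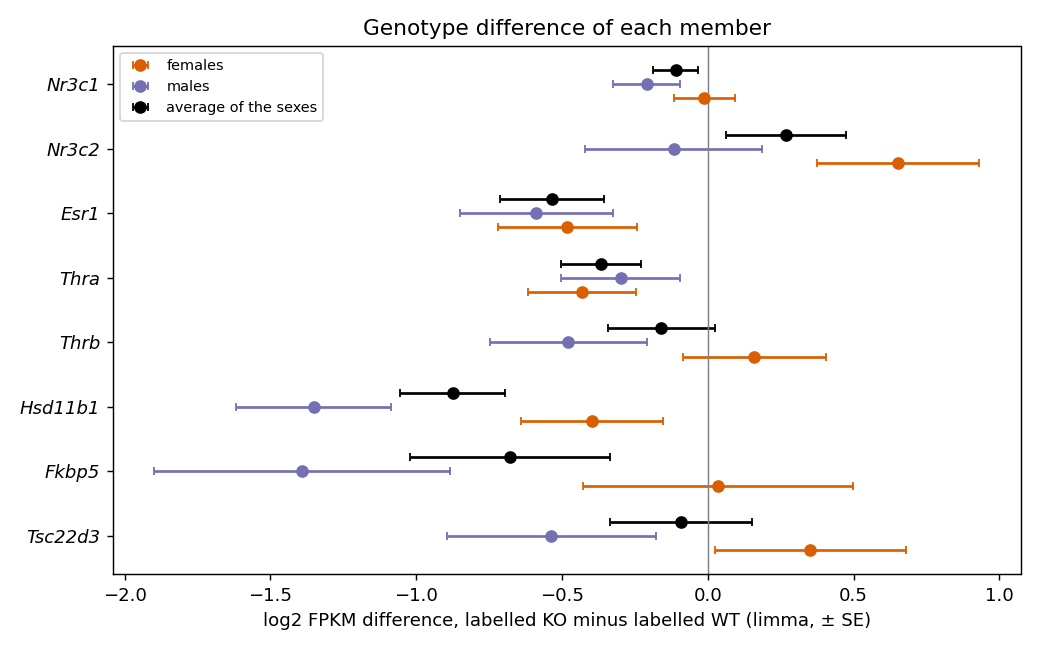
Log2 FPKM difference, labelled KO minus labelled WT, of the 8 genes in females, in males and averaged over the sexes (limma estimates, bars ± SE, n = 4 labelled KO and 5 labelled WT). All 8 estimates in males lie below 0, and 4 of 8 in females do. *Hsd11b1* (-1.35) and *Fkbp5* (-1.39) are the lowest in males.

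By count, 7 of the 8 genes were lower in the libraries labelled KO when averaged over the sexes, with a median log2 difference of -0.26. Over all genes tested 62.5% were lower, with a median of -0.07. In males all 8 were lower (median -0.51, against -0.08 over all genes), and in females 4 of 8 (median 0.01, against -0.07). Over all genes 60.1% were lower in males and 60.2% in females. No member was called in females, where 3 of all genes were (0.0204%), and none in males, where 2 were (0.0136%). At an unadjusted p under 0.05 limma gave 2 of the 8 genes and 1862 of all genes in females, and 2 and 2429 in males. None of the 8 genes separated the genotypes completely, whereas 6.04% of genes had all libraries labelled KO below all labelled WT and 3.03% the reverse.

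The sex comparison, males minus females averaged over genotype, was largest for the same genes. *Fkbp5* differed by 1.83 (SE 0.34, adjusted p 0.184) and *Hsd11b1* by 1.01 (SE 0.18, adjusted p 0.176). Neither passed, and 2 of all genes did (0.0136%), with 1533 genes and 2 of the 8 at an unadjusted p under 0.05. The exact permutation p for sex was 0.0159 for *Fkbp5* and 0.0635 for *Hsd11b1*, unadjusted. Neither passed in any alternative with adjusted p that kept all libraries. The *Fkbp5* difference was 2.28 without KO male 2 and 1.38 without KO male 1, and that of *Hsd11b1* was 0.91 and 1.11. Each of these fits leaves a single male labelled KO. For the interaction no gene passed by limma (0%), with 1028 genes and 1 of the 8 at an unadjusted p under 0.05. A pattern picked after the values were seen, both WT males above the other 7 libraries, held for 2 of the 8 genes and for 5.79% of all genes.

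Glucocorticoid targets were read from a list of 30 that includes *Fkbp5* and *Tsc22d3*, of which 29 could be tested. A single gene of the 29 passed, near the 3.60% of all genes that did. It was *Fbxo32*, an atrophy-related ubiquitin ligase, at 3.31 to 6.19 FPKM in the libraries labelled KO and 1.57 to 2.92 in those labelled WT (1.15, SE 0.21, limma adjusted p 0.0370). *Fbxo32* is best known from skeletal muscle, whose markers also separated the genotypes, and the part of muscle in it was not tested. Next by p were *Errfi1*, a feedback inhibitor of EGF receptor signalling (-0.83, adjusted p 0.0505), and *Pik3r1*, the regulatory subunit of PI3 kinase (-1.07, adjusted p 0.0505). In all 24 of 29 were lower in the libraries labelled KO (median -0.24), with 25 of 29 in males (median -0.43) and 14 of 29 in females (median 0.02). Over all genes 62.5% were lower, with 60.1% in males and 60.2% in females. At an unadjusted p under 0.05 limma gave 8 lower and 3 higher of the 29 for genotype (37.9%), against 20.2% of all genes. Without KO male 1, which leaves a single male labelled KO, 22 of 29 were lower, as were 10643 of 14675 genes. The median was then -0.41, against -0.15 over all genes. The genes that then passed were *Fkbp5* and *Pik3r1*, both lower, and *Fbxo32* did not pass.

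Of the 29 genes of this list, 4 were higher in both WT males than in the other 7 libraries. This pattern was picked after the values were seen, and 5.79% of all genes share it. The 4 were *Fkbp5*, *Zbtb16*, *Pik3r1* and *Glul*, and *Zbtb16* and *Glul* are named after their values were seen. *Zbtb16*, a zinc finger repressor and a sensitive glucocorticoid target, stood at 6.06 and 5.22 FPKM in the WT males and at 0.832 to 2.79 elsewhere. *Glul*, which encodes glutamine synthetase, stood at 1406 and 1160 FPKM in the WT males and at 611 to 1093 elsewhere. *Per1*, a clock gene that glucocorticoids induce, and *Tsc22d3* did not share this order.

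**Figure D4:**
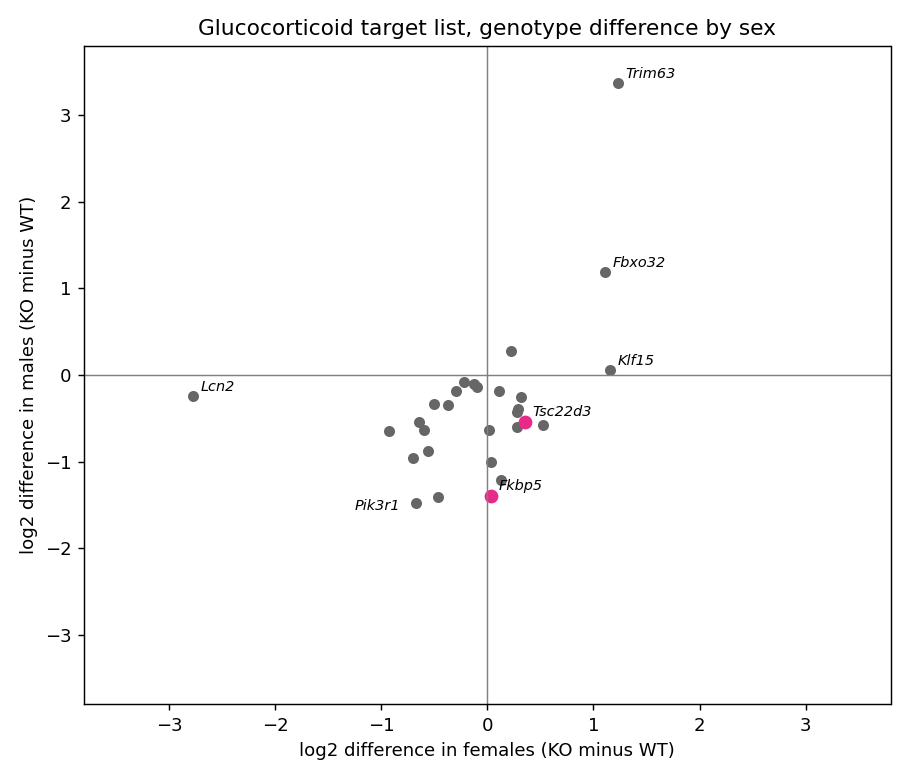
Log2 difference (labelled KO minus labelled WT) in males against that in females for 29 glucocorticoid targets. Each point is a gene, and *Fkbp5* and *Tsc22d3* are in pink. In males 25 of 29 points lie below 0 and in females 14 of 29, against 60.1% and 60.2% of all genes. *Fbxo32* (1.15 averaged over the sexes) lies above 0 in both.

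Among 12 tested genes of steroid metabolism *Hsd11b1* was the only gene that passed, where 3.60% of all genes did. *Hsd17b11*, a short-chain dehydrogenase of lipid droplets, ranged from 18.3 to 22.5 FPKM in the libraries labelled KO and from 22.4 to 26.7 in those labelled WT (-0.27, adjusted p 0.0830). *H6pd*, which supplies NADPH to the enzyme of *Hsd11b1*, was highest in the same libraries as *Hsd11b1*, at 37.7 and 45.6 FPKM in the WT males and 26.3 to 33.9 elsewhere (-0.21, adjusted p 0.261). *Hsd17b12*, of fatty acid elongation, was also highest in both WT males, and its genotype difference was 0.13 (limma adjusted p 0.335). That order was picked after the values were seen. It held for 3 of the 12 genes, *Hsd11b1* itself included, and for 5.79% of all genes. In males 12 of 12 were lower (median -0.27) and in females 5 of 12, against 60.1% and 60.2% of all genes. Without KO male 1, which leaves a single male labelled KO, 9 of 12 were lower in males, as were 11072 of 14675 genes. The *Hsd11b1* difference averaged over the sexes was then -0.78, and this gene was no longer called.

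Of 8 other steroid receptor genes tested, 3 passed, against 3.60% of all genes. The membrane progesterone receptor components *Pgrmc1* (-0.39, SE 0.08, adjusted p 0.0413) and *Pgrmc2* (-0.45, SE 0.09, adjusted p 0.0419) were lower in all libraries labelled KO. *Pgrmc1* ranged from 33.8 to 39.6 FPKM in these and from 41.6 to 54.2 in WT, and *Pgrmc2* from 22.2 to 27.0 and from 30.7 to 37.7. *Esrrb*, an orphan oestrogen-related receptor, was higher, with 1.39 to 1.86 against 0.506 to 1.23 FPKM (1.06, SE 0.21, adjusted p 0.0431). Without KO male 1 none of the 8 passed.

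None of 20 receptor chaperones and cofactors passed. The lowest p values were those of the corepressor *Nrip1* (-0.66, adjusted p 0.195), the retinoid X receptor *Rxrg* (0.26, adjusted p 0.240) and the co-chaperone *Bag1* (-0.17, adjusted p 0.269), while at an unadjusted p under 0.05 limma gave 2 genes of 20, against 2961 of all genes (20.2%). Of 11 mineralocorticoid targets, *Tsc22d3* among them, 1 passed, where 3.60% of all genes did. It was the sodium pump subunit *Atp1b1*, with 17.5 to 25.7 FPKM in the libraries labelled KO and 9.65 to 16.7 in WT (0.67, SE 0.13, limma adjusted p 0.0392). *Ptgds*, a prostaglandin D synthase, differed by 0.85 (limma adjusted p 0.0639) and the kinase *Sgk1*, also a glucocorticoid target, by -0.60 (adjusted p 0.157). Of these 11, limma gave 4 lower and 2 higher at an unadjusted p under 0.05 (54.5%), against 20.2% of all genes. The 11 oestrogen targets tested include *Esr1* itself. None passed, and the lowest p values besides that of *Esr1* were those of *Xbp1* (-0.83, adjusted p 0.133), *Greb1* (-1.34, adjusted p 0.192, at most 0.0642 FPKM) and *Nrip1*. At an unadjusted p under 0.05 limma gave 4 of the 11, *Esr1* included, all lower, as were 14.2% of all genes.

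On the thyroid side, none of 8 genes of hormone supply passed and 7 of 8 were lower (median -0.31), against 62.5% of all genes. At an unadjusted p under 0.05 limma gave 2 of the 8, near the 20.2% of all genes. Among the lowest p values were those of the transporters *Slc7a8* (-0.34, adjusted p 0.218) and *Slc16a10* (-0.22, adjusted p 0.264). *Dio2* stood at 14.9, 47.4 and 60.9 FPKM in the WT females, 21.6 and 21.3 in the females labelled KO, 15.3 and 23.9 in the WT males and 12.5 and 15.5 in the males labelled KO. The spread among WT females exceeded the genotype difference of *Dio2* (-0.58, SE 0.40, adjusted p 0.484).

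None of 17 thyroid hormone targets passed. In the libraries labelled KO 12 were higher (median 0.09, or 0.20 without KO male 1), against 37.5% of all genes. Of the 17, 2 were higher at an unadjusted limma p under 0.05 (11.8%), where 5.99% of all genes were. Those were *Ucp1*, with 2164 to 2992 FPKM in the libraries labelled KO and 1357 to 2325 in WT (0.52, SE 0.13, adjusted p 0.0739), and *Atp2a1*, the fast muscle calcium pump that is also among the muscle markers (2.34, adjusted p 0.0584). *Nrgn* followed (-0.67, adjusted p 0.316).

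Ranked by Pearson correlation of log2 FPKM over the 9 libraries, as a description with no test, the genes most like *Hsd11b1* were *Cog2* (0.958), *Ccny* (0.949) and *Tcea1* (0.947), and those most like *Fkbp5* were *Serp1* (0.964), *Rai14* (0.960) and *Nucks1* (0.948). *Tsc22d3* was nearest to *6530403H02Rik* (0.951), *B4galt4* (0.943) and *Gm10408* (0.927), and *Nr3c1* to *Smim4* (0.944), *Mrps18c* (0.936) and *Marveld1* (0.928). For *Nr3c2* the nearest were *Bet1* (0.946), *Kcnd2* (0.945) and *Gm28042* (0.939). For *Esr1* they were *Pole4* (0.994), *Rhbdl1* (0.982) and *Slc5a3* (0.959), for *Thra* *Tpst1* (0.987), *Fam212a* (0.980) and *Cxx1a* (0.971), and for *Thrb* *Itgb3bp* (0.918), *Plag1* (0.917) and *Pcdh18* (0.905). The points share group, depth and cell makeup, and the best of 14675 genes is high with 9 points.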

How the data were processed

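BAT was snap-frozen, RNA was extracted, and TruSeq libraries made after 2 rounds of poly A+ selection were read as paired ends. Each library has a deposited table in which the authors give an FPKM for every gene symbol, made with bcl2fastq 1.8.4, TopHat2 2.0.11 and Bowtie on mm10 per the submitters' processing notes. Strand and fragment counts are not given in the sources used here. Relative depth, from steps among values of 0.001 to 0.15 FPKM, was 0.911 to 1.14 of WT female 1. The sum of FPKM was 380558 to 443569 per library. No 2 libraries were identical.

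Genes above 0 in all 9 libraries (14675 of 24356) were tested on log2 FPKM without a pseudocount in limma with a mean-variance trend and a mean for each of 4 genotype and sex groups, with Benjamini-Hochberg adjustment over all of them and a threshold of 0.05. The terms and filter follow the study's methods, and limma replaced their ordinary linear model, which was kept as an alternative. Single genes were also tested by the exact two-sided permutation test over all 126 ways to choose 4 of 9 libraries. It took no account of sex when testing genotype, nor of genotype when testing sex. The fit was tested on simulated data. Replicates are separate animal numbers and pair no libraries.

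The members and lists were chosen with earlier results of these data known. Genes named are the 8 members, *Ghrh*, *Ghr*, *Dio2*, *Nr1d1*, the 3 other genes with the lowest genotype p in each list, genes sharing exons with a member, and the 3 genes most correlated with each member. Some genes that this rule names are not reported here. Alternatives covered pseudocounts, filters, scaling, model terms and leaving out each library. The analysis of lists without KO male 1 was added after seeing the data. Positions are from GENCODE M21 and promoters from RefSeq. The fits ran in limma 3.58.1 under R 4.3.3, and the rest under Python 3.11.15 (numpy 2.4.6, pandas 2.3.3, matplotlib 3.10.9).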

Additional observations from a re-analysis of the deposited data

Results flagged for a closer look

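*Fkbp5* in the library labelled KO male 1 was 5.79 FPKM, and the nearest of the other 3 libraries labelled KO was 1.78, a gap of 0.865 of the range of these 4 (Dixon critical value 0.829). *Tsc22d3* in KO male 2 was 15.7 FPKM against 34.4 in the nearest library labelled KO, a gap of 0.832 of their range. These were 2 of 16 groups checked, and chance gives about 1 in 20.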

How the results depend on the processing

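With 2 or 3 libraries in each group and unknown fragment counts, single libraries decided several calls. The *Hsd11b1* genotype difference kept its sign in all alternatives (-0.99 to -0.73). The count of the 8 genes called, 1, became 0 with median centring, quantile normalization, a pseudocount of 1 or no filter together with a pseudocount of 0.1. It also became 0 with genotype and sex without interaction, genotype alone, no mean-variance trend or the adjusted ordinary linear model. Leaving out single libraries changed which of the 8 genes, if any, was called, and it was not always *Hsd11b1*. The cause was not tested. The count of all genes called for genotype, 529, became 170 with no filter and that pseudocount, 222 with median centring, 34 without the trend, 19 with the adjusted ordinary model and 1107 with that model at an unadjusted p under 0.01, and ran from 8 to 1105 without single libraries. Median centring moved the median genotype difference of all genes from -0.07 to -0.02.

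At an unadjusted p under 0.01 the ordinary model called 1 of the 8 genes in males and 2 for sex. At an adjusted p under 0.05 that model and limma both called 0. Unadjusted, the limma p was 0.00111 for *Hsd11b1* in males. For sex it was 0.000612 for *Hsd11b1* and 0.000817 for *Fkbp5*. The limma counts moved when KO male 2 was left out, which leaves a single male labelled KO. The near-zero difference of *Nr3c1* in females turned positive with median centring (0.10) and quantile normalization (0.0405) and ran from -0.0669 to 0.0425 without single libraries. Other signs also turned when single libraries were left out, none of them called. *Tsc22d3* ran from -0.41 to 0.23 by genotype, from -1.18 to 0.10 in males and from -0.38 to 0.26 by sex. *Fkbp5* in females ran from -0.27 to 0.35, *Thrb* by sex from -0.185 to 0.0291, and the interaction of *Esr1* from -0.49 to 0.28 and of *Thra* from -0.13 to 0.40. Among the lists, without KO male 1 the calls of other steroid receptors went from 3 to 0 and those of glucocorticoid targets from 1 to 2.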

Other observations

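Clock genes, several of which respond to glucocorticoids, were read as a further list. None of 19 passed for genotype by limma, with 5 at an unadjusted p under 0.05, 2 higher and 3 lower, against 20.2% of all genes. In females 14 of 19 were higher in the libraries labelled KO (median 0.30) and 7 were at an unadjusted p under 0.05, all higher. Over all genes in females 39.8% were higher, and 4.95% were higher at that p. In males 13 of 19 were lower (median -0.24), against 60.1% of all genes. At an unadjusted p under 0.05 limma gave 5 lower and 1 higher in males (31.6%), against 16.6% of all genes. For the interaction it gave 8 lower and 2 higher at that p (52.6%), against 7.01% of all genes, and no clock gene passed. The hour of harvest is not given in the sources used here, and its part in these values was not tested.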
